A study of Mus musculus with 8 samples.

Results

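Hepatokines are proteins that the liver secretes and that act on other tissues as hormones, enzyme inhibitors or carriers. The transcripts of 8 of them were chosen by gene symbol: Fgf21, Gdf15, Angptl4, Ahsg, Fetub, Selenop, Lect2 and Rbp4. For 7 a probe set with that symbol alone was found among 22180 genes, and all 7 were bright enough to be among the 16635 genes tested; Gdf15 was not analysed here. Liver RNA was measured on 8 one-colour Affymetrix whole-transcript arrays, 4 labelled rilpivirine and 4 labelled control. Rilpivirine is a non-nucleoside inhibitor of the HIV reverse transcriptase. All mice were wild-type C57BL/6, and all 8 samples are described as fatty liver disease of the non-alcoholic kind. The protocol names normal chow and a diet with 60% fat, fed for 3 months, but not which sample had which; rilpivirine was given daily by mouth at a dose matched to human use, which is not stated as a number, and the labels state no age, sex or vehicle for the controls. They also do not tie each sample to its own mouse, so a p-value here reflects only how far apart the labelled replicates lay, and that distance may be technical.

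The secreted proteins differ in when the liver makes them. FGF21 is a hormone of fasting and of cellular stress, and acts through FGF receptors with the co-receptor beta-Klotho. ANGPTL4 inhibits lipoprotein lipase, the enzyme that releases fatty acids from plasma triglyceride, and its gene is a target of the fatty acid sensing PPAR receptors. Fetuin-A (Ahsg) and fetuin-B (Fetub) are abundant plasma proteins of the cystatin superfamily, LECT2 is a chemotaxin linked to insulin resistance of muscle, selenoprotein P (Selenop) carries selenium to other tissues, and RBP4 carries retinol in plasma bound to transthyretin.

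Promoter sequences of 4 members are shown here: Fgf21 for its place beside Atf4 in the values below, Rbp4 as the member whose groups did not overlap, and the neighbouring fetuin genes, whose spread differed. They come from RefSeq on GRCm38.p6, and each is printed in the direction of the gene. Capitals mark matches, on either strand, to 8 motifs. The first were TGATGNAAN, the amino acid response element, the direct repeat bound by PPAR receptors, and the unit of that repeat, AGGTCA, which lies within it. The C/EBP palindrome was searched as TTGCGCAA and the site of the hepatocyte factor HNF1 as GTTAAT. The E-box, a site of clock and nutrient factors, was CACGTG, and the D-box of DBP and its relatives was TTATGNAA. The last was the TATA box of core promoters, TATAAA.
Fgf21, chr7:45615441-45615740, minus strand: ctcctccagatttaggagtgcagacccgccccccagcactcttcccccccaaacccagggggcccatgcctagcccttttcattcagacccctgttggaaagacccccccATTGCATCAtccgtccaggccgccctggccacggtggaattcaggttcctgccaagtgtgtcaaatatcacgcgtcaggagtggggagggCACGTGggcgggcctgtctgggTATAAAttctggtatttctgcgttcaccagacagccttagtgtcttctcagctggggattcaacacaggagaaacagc
Rbp4, chr19:38124762-38125061, minus strand: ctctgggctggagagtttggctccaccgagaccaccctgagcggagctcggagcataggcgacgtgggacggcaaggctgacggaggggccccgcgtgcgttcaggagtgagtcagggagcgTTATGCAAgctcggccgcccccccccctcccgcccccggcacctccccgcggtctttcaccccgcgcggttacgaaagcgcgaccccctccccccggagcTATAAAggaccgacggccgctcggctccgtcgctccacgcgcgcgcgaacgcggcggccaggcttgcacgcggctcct
Fetub, chr16:22918132-22918431, plus strand: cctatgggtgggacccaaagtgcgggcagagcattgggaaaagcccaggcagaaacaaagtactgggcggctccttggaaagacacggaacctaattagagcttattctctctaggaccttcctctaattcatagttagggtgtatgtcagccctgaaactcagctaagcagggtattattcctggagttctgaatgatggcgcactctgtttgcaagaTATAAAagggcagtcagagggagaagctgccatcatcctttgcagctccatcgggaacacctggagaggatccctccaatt
Ahsg, chr16:22891765-22892064, plus strand: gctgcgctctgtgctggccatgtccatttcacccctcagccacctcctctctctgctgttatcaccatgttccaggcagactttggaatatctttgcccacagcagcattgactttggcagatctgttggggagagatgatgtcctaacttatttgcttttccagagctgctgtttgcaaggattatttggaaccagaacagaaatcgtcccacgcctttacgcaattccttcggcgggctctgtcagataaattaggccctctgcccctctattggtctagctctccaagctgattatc

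In the Fgf21 window the amino acid response element, which binds ATF4, began 140 bases before the start, an E-box 50 bases before it and a TATA box 28 bases before it. Among 32851 windows of the same length, 3.95% held the response element, 7.15% an E-box and 13.6% a TATA box. The Rbp4 window held a D-box (in 3.39% of windows) beginning 128 bases and a TATA box beginning 28 bases before the start. The Fetub window held a TATA box 31 bases before the start, and the Ahsg window held none of the 8 motifs. A second RefSeq window was listed for both Rbp4 and Fetub. In Rbp4's, chr19:38125272-38125571, the letters of the amino acid response element began 76 bases before the start, and in Fetub's, chr16:22919972-22920271, those of a D-box began 33 bases after it. The Lect2 window held the HNF1 letters 78 bases before the start (in 7.10% of windows). Of the 3 Selenop windows, 1 held TATAAA, 10 bases before its start. These matches describe the letters only.

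No hepatokine transcript differed between the groups past an adjusted p of 0.05 (Benjamini-Hochberg over all 16635 genes, limma). The same test called 0 of all genes (0.0%). At an unadjusted p under 0.05 it gave 0 of the 7 members, against 5.21% of all genes. Mean levels were lower with rilpivirine in 6 members and higher in Fgf21, beside 56.9% of all genes with a lower mean, and the median log2 difference of the 7 was -0.11 beside -0.03 over all genes. Rilpivirine replicate 2 stood apart over all probe sets, with a mean correlation of 0.964 with the other arrays, where the rest had 0.976 to 0.981 (Pearson's r). Without that array 8844 of all genes had a lower mean (53.2%), and the median over all genes was -0.01; the differences of the members and of the list genes below are also given without it where they changed sign or moved by over 1.5 times. All values below are log2 levels or log2 differences (rilpivirine minus control), and levels of different genes are not compared because probe sets differ in brightness.

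Fgf21 measured 5.42, 5.11, 4.90 and 6.23 in rilpivirine replicates 1 to 4, against 5.65, 5.10, 5.07 and 4.75 in control replicates 1 to 4. Rilpivirine replicate 4 was the highest array and the groups overlapped. The means were 5.41 ± 0.58 for rilpivirine and 5.14 ± 0.38 for controls (SD, n = 4 each), a difference of 0.27 ± 0.28 (SE; adjusted p = 0.906 in limma). The 95% interval ran from 0.793-fold to 1.84-fold. Without rilpivirine replicate 4 the difference was 0.0017.

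Angptl4 had the most negative difference. It measured 8.09, 6.83, 8.25 and 7.55 with rilpivirine, against 8.38, 7.31, 8.70 and 8.47 in controls. Replicate 2 was the lowest array of each group, and the groups overlapped. The difference was -0.53 ± 0.34 (SE; adjusted p = 0.890 in limma), with an interval of 0.408-fold to 1.17-fold. Without rilpivirine replicate 2 the Angptl4 difference was -0.25, and without control replicate 2 it was -0.84.

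**Figure D1:**
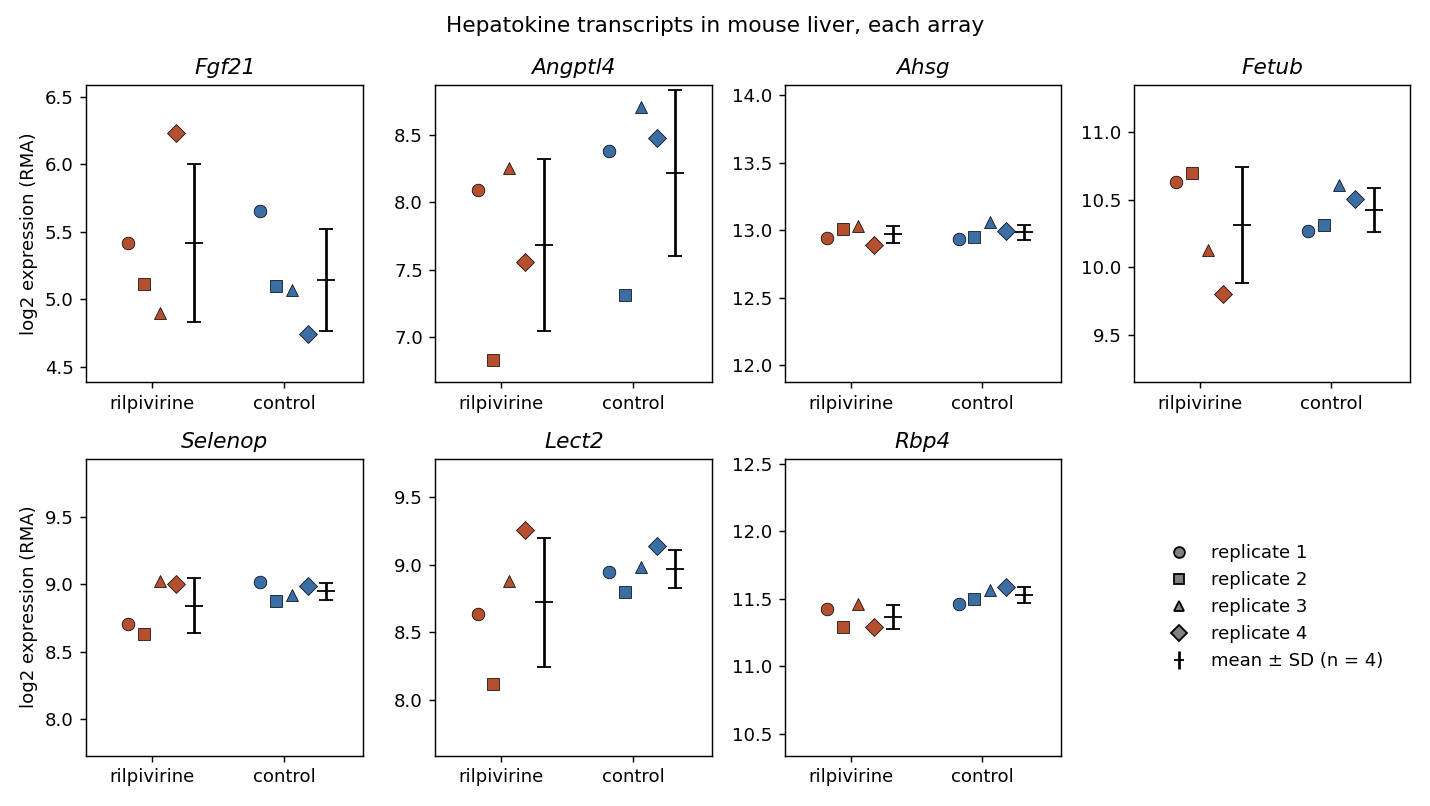
Log2 expression of the 7 hepatokine transcripts on each array, rilpivirine (red) left of control (blue), with marker shapes for replicate numbers and bars for mean ± SD (n = 4); every panel spans the same log2 range. Angptl4 and Fgf21 are spread widely in both groups, Ahsg lies between 12.89 and 13.06 on all 8 arrays, and the 4 Rbp4 values with rilpivirine lie just below the 4 of controls.

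Rbp4 was the member whose groups did not overlap, with rilpivirine on the lower side. It measured 11.421, 11.289, 11.459 and 11.289 with rilpivirine, against 11.461, 11.501, 11.567 and 11.585 in controls. The gap between rilpivirine replicate 3 and control replicate 1 was in the third decimal. The difference was -0.16 ± 0.10 (SE; adjusted p = 0.890 in limma), with an interval of 0.760-fold to 1.05-fold. The groups did not overlap in 3.04% of all genes tested, and lay apart with rilpivirine lower in 1.73%; 1 of 7 members is too small a count to set against these shares. Ttr, which encodes transthyretin, the plasma partner of RBP4, differed by 0.01 ± 0.10 (SE), and by 0.04 without rilpivirine replicate 2.

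The fetuins had different patterns. Ahsg measured 12.95, 13.01, 13.03 and 12.89 with rilpivirine, against 12.94, 12.95, 13.06 and 13.00 in controls. The groups lay within the same narrow range, and the difference was -0.02, with a 95% interval of 0.846-fold to 1.16-fold (adjusted p = 0.982 in limma), and -0.03 without rilpivirine replicate 2. Ahsg sat near the top of the scale, where values varied little: the median SD within groups was 0.085 in the 38 genes with a mean of 12 or more, against 0.21 in all genes tested. The part of signal saturation in this was not tested.

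Fetub measured 10.63, 10.70, 10.12 and 9.80 with rilpivirine, against 10.27, 10.31, 10.61 and 10.51 in controls. Rilpivirine replicates 1 and 2 were the highest arrays and rilpivirine replicates 3 and 4 the lowest, with the controls between them. The difference was -0.11 ± 0.20 (SE; adjusted p = 0.937 in limma), and it was 0.06 without rilpivirine replicate 4 and -0.24 without rilpivirine replicate 2. In the RefSeq gene table (GRCm38.p6) both fetuin genes lie on chromosome 16, with a long non-coding RNA gene between them and the related genes Hrg and Kng2 next in order.

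Lect2 measured 8.63, 8.12, 8.88 and 9.26 with rilpivirine, against 8.95, 8.80, 8.99 and 9.14 in controls. Rilpivirine replicate 2 was the lowest array and replicate 4 the highest of all 8. The difference was -0.25 ± 0.21 (SE; adjusted p = 0.898 in limma). Leaving out rilpivirine replicate 2 gave -0.04, leaving out its replicate 4 gave -0.43, and leaving out its replicates 1 and 2 together gave 0.10.

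Selenop measured 8.70, 8.63, 9.02 and 9.00 with rilpivirine, against 9.01, 8.87, 8.92 and 8.98 in controls. Rilpivirine replicates 1 and 2 lay below every control array, and rilpivirine replicates 3 and 4 did not. The difference was -0.11 ± 0.12 (SE; adjusted p = 0.916 in limma), with an interval of 0.767-fold to 1.12-fold. It was -0.04 without rilpivirine replicate 2 and 0.07 without rilpivirine replicates 1 and 2 together.

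Members differed widely in their spread within groups. The SD of Lect2 was 0.48 with rilpivirine and 0.14 in controls. That of Fetub was 0.43 with rilpivirine and 0.16 in controls, and that of Selenop was 0.20 with rilpivirine and 0.064 in controls (n = 4 each). Without rilpivirine replicate 2 the rilpivirine SD was 0.31 for Lect2, 0.42 for Fetub and 0.18 for Selenop. The ratio of the SDs, rilpivirine over control, lay at percentiles 91.6, 84.1 and 89.9 of all genes for Lect2, Fetub and Selenop. For Fgf21, Rbp4, Ahsg and Angptl4 it lay at 55.8, 55.4, 35.5 and 32.2. The SD was larger with rilpivirine in all 7 members, beside 69.8% of all genes, and in 6 of the 7 without rilpivirine replicate 2, beside 57.9% of all genes. The exception without that array was Angptl4, at 0.37 with rilpivirine and 0.62 in controls. The SD within groups, pooled over both, lay at percentile 98.7 of all genes tested for Angptl4 and 95.8 for Fgf21, and at 0.445 for Ahsg and 1.55 for Rbp4.

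**Figure D2:**
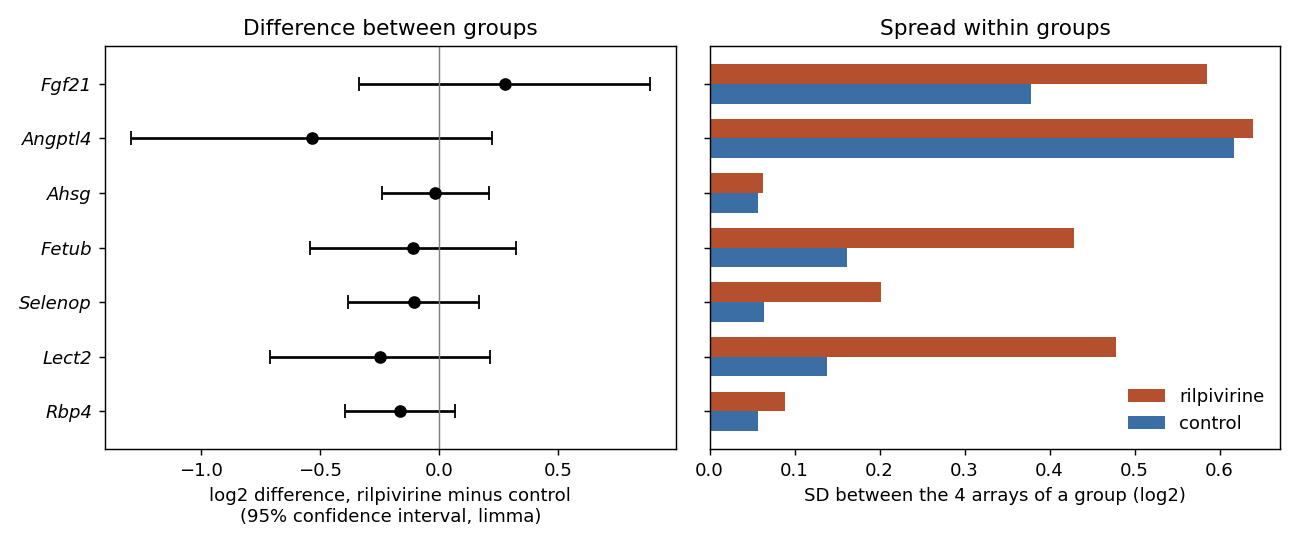
Left, the log2 difference of each hepatokine (rilpivirine minus control) with its 95% confidence interval from limma; right, the SD of the 4 arrays of each group on the log2 scale, rilpivirine above control. All 7 intervals include 0, and the SD of Lect2 was 0.48 with rilpivirine and 0.14 in controls.

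Whether members changed by unequal amounts was tested on the difference of 2 members within each array, for 21 pairs. With 4 arrays against 4 the exact permutation test allows no p below 0.0286. After Benjamini-Hochberg adjustment over the pairs 0 passed, and 1 pair had an unadjusted p under 0.05 (two-sided). In that pair the within-array difference of Ahsg minus Rbp4 averaged 1.61 with rilpivirine and 1.46 in controls, a shift of 0.15 (exact permutation p = 0.0286, adjusted p = 0.600).

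Of the 21 correlations between members across the 8 arrays, 0 passed an adjusted p of 0.05, and 3 had an unadjusted exact permutation p under 0.05 for r and 3 for rho. Lect2 and Selenop had r = 0.875 (exact permutation p = 0.00402, adjusted p = 0.0844) and rho = 0.619 (exact permutation p = 0.115, adjusted p = 0.402). Without rilpivirine replicates 1 and 2, the arrays farthest from the Selenop median, r was 0.405, so the relation rests on those arrays. Rbp4 and Angptl4 had r = 0.737 (exact permutation p = 0.0413, adjusted p = 0.286) and rho = 0.738 (exact permutation p = 0.0458, adjusted p = 0.321). Without replicate 2 of each group their r was 0.951. Ahsg and Fgf21 had r = -0.792 (exact permutation p = 0.0163, adjusted p = 0.171) and rho = -0.786 (exact permutation p = 0.0279, adjusted p = 0.293), and r was -0.469 without rilpivirine replicate 4 and control replicate 1. Selenop and Fetub had rho = -0.857 (exact permutation p = 0.0107, adjusted p = 0.225) and r = -0.694 (exact permutation p = 0.0561, adjusted p = 0.286), with r = -0.656 without rilpivirine replicates 2 and 4. A group of 4 arrays is too small for a correlation of its own; with group means removed, the 4 values of r were 0.854, 0.703, -0.792 and -0.847 in the order given.

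The members were also set against 8 genes fixed for their known links (Klb, Fgfr1, Ttr, Ppara, Atf4, Ddit3, Lpl and Insr), in 56 relations. None passed the adjustment (0 for r and 0 for rho), and 8 for r and 7 for rho had an unadjusted exact permutation p under 0.05. The smallest p belonged to Fgf21 and Atf4, the transcription factor of the integrated stress response that activates Fgf21. Atf4 measured 5.71, 5.27, 5.30 and 6.19 with rilpivirine, against 5.93, 5.59, 5.70 and 5.46 in controls. Rilpivirine replicate 4 was the highest array in both genes and control replicate 1 the next. That order was not particular to this pair. Other listed genes had it too, among them Atf3, Eif2ak3, Asns, Pdk4 and Cidec, though not all, as in Chac1. The r of Fgf21 and Atf4 was 0.885 (exact permutation p = 0.00350, adjusted p = 0.131) and rho 0.714 (exact permutation p = 0.0576, adjusted p = 0.368). The r was 0.871 without rilpivirine replicates 2 and 4, the arrays farthest from the Atf4 median, and 0.963 with group means removed. Control replicate 1 stayed in that smaller set. How far the relation rests on rilpivirine replicate 4 and control replicate 1 together was not tested. Lpl, which encodes the lipase that ANGPTL4 inhibits, had r = -0.874 with Fetub (exact permutation p = 0.00466, adjusted p = 0.131) and r = 0.831 with Selenop (exact permutation p = 0.00732, adjusted p = 0.137), and rho of -0.881 and 0.881 (exact permutation p = 0.00724 and adjusted p = 0.200 each). Without rilpivirine replicates 1 and 4 these r were -0.783 and 0.890. Most known links had a smaller r. Angptl4 had r = 0.139 with Lpl and 0.384 with Ppara, Rbp4 0.235 with Ttr, and Ahsg -0.119 with Insr. Fgf21 had r = -0.311 with Fgfr1, 0.577 with Ddit3 and -0.741 with Klb (for Klb exact permutation p = 0.0325, adjusted p = 0.303). Without rilpivirine replicate 4 and control replicate 1, the r of Fgf21 and Klb was 0.13.

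**Figure D3:**
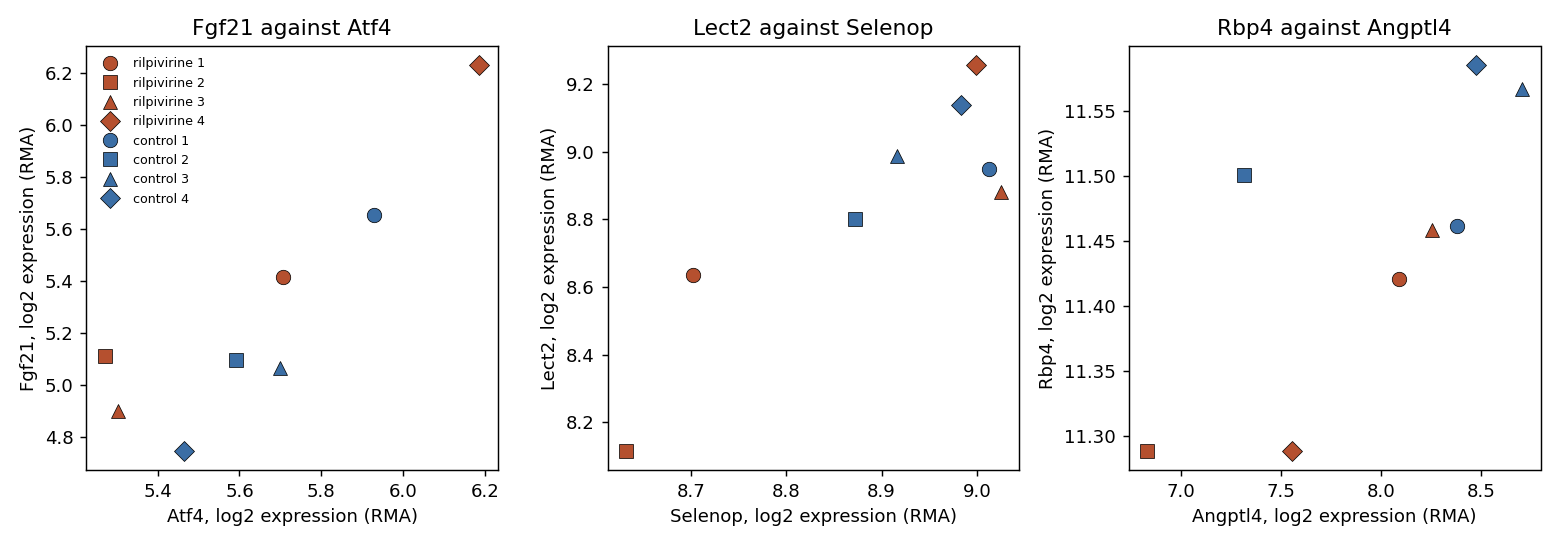
Log2 expression of pairs of genes on the 8 arrays, rilpivirine in red and control in blue, with a marker shape for each replicate number. Fgf21 and Atf4 are both highest in rilpivirine replicate 4, Lect2 and Selenop are both lowest in rilpivirine replicate 2, and Rbp4 and Angptl4 have r = 0.737.

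Genes with the pattern most like each member over the 8 arrays were found by Pearson's r among all genes tested, and these values, over arrays that share their groups and normalization, are a description. For Fgf21 they were Arfgap3, Ncbp1 and Iars (r of 0.966, 0.962 and 0.959), for Angptl4 Txndc16, Kng2 and Mpzl2 (0.988, 0.966 and 0.966), and for Ahsg Serpina1e, Cyp2g1 and Rcc1l (0.920, 0.920 and 0.914). Fetub lay closest to Bspry, Os9 and Cpn2 (0.963, 0.958 and 0.957), Selenop to Chd1, Glud1 and Polr2k (0.992, 0.991 and 0.989), and Lect2 to D10Wsu102e, Scai and Sbf2 (0.984, 0.983 and 0.980). Rbp4 lay closest to Cpeb3, Aqp11 and Nmrk1 (0.970, 0.968 and 0.962). Nmrk1, a nicotinamide riboside kinase, had a difference of -1.11 ± 0.24 (SE), Aqp11, a water channel, -0.62 ± 0.16 (SE), and Cpeb3 -0.35 ± 0.13 (SE). None of them passed the adjustment (adjusted p = 0.743, 0.777 and 0.890 in limma). Genes picked for a high r with Rbp4, whose groups did not overlap, tend to be lower with rilpivirine through that choice. Their differences are therefore no separate result.

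None of the receptors and binding partners of the hepatokines passed the test. Of 23 listed, 19 were tested and 0 passed over all genes; 8 lay above and 11 below 0, and the median was -0.03, the same as over all genes to 2 decimals. At an unadjusted p under 0.05 there was 1 higher, beside 2.0% of all genes, and 2 were lower, beside 3.21%. Stra6l, a receptor through which liver cells take up retinol from RBP4, measured 8.45 ± 0.09 on rilpivirine arrays and 7.99 ± 0.21 on control arrays (SD, n = 4 each; adjusted p = 0.813 in limma). Met, the receptor of hepatocyte growth factor to which LECT2 also binds, measured 7.70 ± 0.17 on rilpivirine arrays and 8.14 ± 0.16 on control arrays (SD, n = 4 each; adjusted p = 0.813 in limma). The FGF21 receptor Fgfr1 measured 4.33 ± 0.05 on rilpivirine arrays and 4.64 ± 0.17 on control arrays (SD, n = 4 each; adjusted p = 0.890 in limma). In these 3 genes of the 19 the groups did not overlap, beside 3.04% of all genes. Klb, which encodes beta-Klotho, differed by 0.09 ± 0.14 (SE), Lpl by -0.05 ± 0.23 (SE) and the insulin receptor Insr, on which fetuin-A acts, by -0.20 ± 0.14 (SE). Without rilpivirine replicate 2 the list's median was -0.04, with Lpl at 0.04 and Insr at -0.13.

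The pathways that drive Fgf21 and Angptl4 did not pass the test in any member. Of 20 tested genes of the integrated stress response, 7 lay above and 13 below 0 (median -0.03), with 2 higher at an unadjusted p under 0.05, beside 2.0% of all genes, and 0 lower, beside 3.21%. Without rilpivirine replicate 2, 12 lay above and 8 below 0 (median 0.03). Atf5, a transcription factor of this response, differed by 0.34 ± 0.13 (SE) and Phgdh, the first enzyme of serine synthesis, by 0.31 ± 0.13 (SE). Cebpb differed by -0.47 ± 0.26 (SE), Atf4 by -0.05 ± 0.20 (SE) and Ddit3, which encodes the stress factor CHOP, by 0.12 ± 0.11 (SE). Cebpb was at -0.26 and Atf4 at 0.06 without rilpivirine replicate 2. Of 19 tested genes of the PPAR alpha list 8 were higher and 11 lower (median -0.02), with 0 higher at an unadjusted p under 0.05, beside 2.0% of all genes, and 2 lower, beside 3.21%. Ppara itself measured 8.24, 7.61, 7.84 and 7.98 with rilpivirine, against 8.14, 8.56, 8.34 and 8.26 in controls; rilpivirine replicate 1 lay above control replicate 1, and the difference was -0.41 ± 0.15 (SE; adjusted p = 0.890 in limma). The thioesterase Acot3 differed by -0.60 ± 0.22 (SE) and the lipid droplet protein Plin2 by 0.42 ± 0.22 (SE).

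None of the selenoproteins and genes of selenocysteine insertion passed the adjustment. Of 22 tested, 7 lay above and 15 below 0, and the median was -0.13. Without rilpivirine replicate 2, 8 lay above and 14 below 0 and the median was -0.06, and a further quantile normalization of all arrays also gave -0.06. At an unadjusted p under 0.05, 0 were higher, beside 2.0% of all genes, and 2 lower, beside 3.21%. Dio1, the selenoenzyme that activates thyroid hormone, measured 8.93, 8.34, 8.93 and 8.88 with rilpivirine, against 9.55, 9.17, 9.51 and 9.46 in controls. The groups did not overlap, and the difference was -0.65 ± 0.16 (SE; adjusted p = 0.773 in limma). Selenok, of the endoplasmic reticulum, differed by -0.41 ± 0.15 (SE; adjusted p = 0.859 in limma) and Selenow by -0.37 ± 0.18 (SE). In 2 of the 22, Dio1 and Selenok, the groups did not overlap, beside 3.04% of all genes. Of 18 retinoid genes 9 were higher and 9 lower (median -0.0025), against 11 and 7 without rilpivirine replicate 2 (median 0.04). Stra6l, also counted among the receptors above, was the 1 higher at an unadjusted p under 0.05, beside 2.0% of all genes. At that level 0 were lower, beside 3.21%. Dhrs3, a retinal reductase, differed by 0.27 ± 0.13 (SE), and Lipe by -0.23 ± 0.14 (SE). The 5 tested relatives and neighbours of the fetuins were all lower, by 0.07 to 0.16 (median -0.15), and 0 had an unadjusted p under 0.05; Dnajb11, Kng1 and Kng2 differed by -0.16, -0.16 and -0.15. Dnajb11 measured 7.03 in rilpivirine replicate 2, the lowest array of its group. Without that array all 5 were still lower, at a median of -0.10, with Dnajb11 at -0.04 and Kng2 at -0.06.

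**Figure D4:**
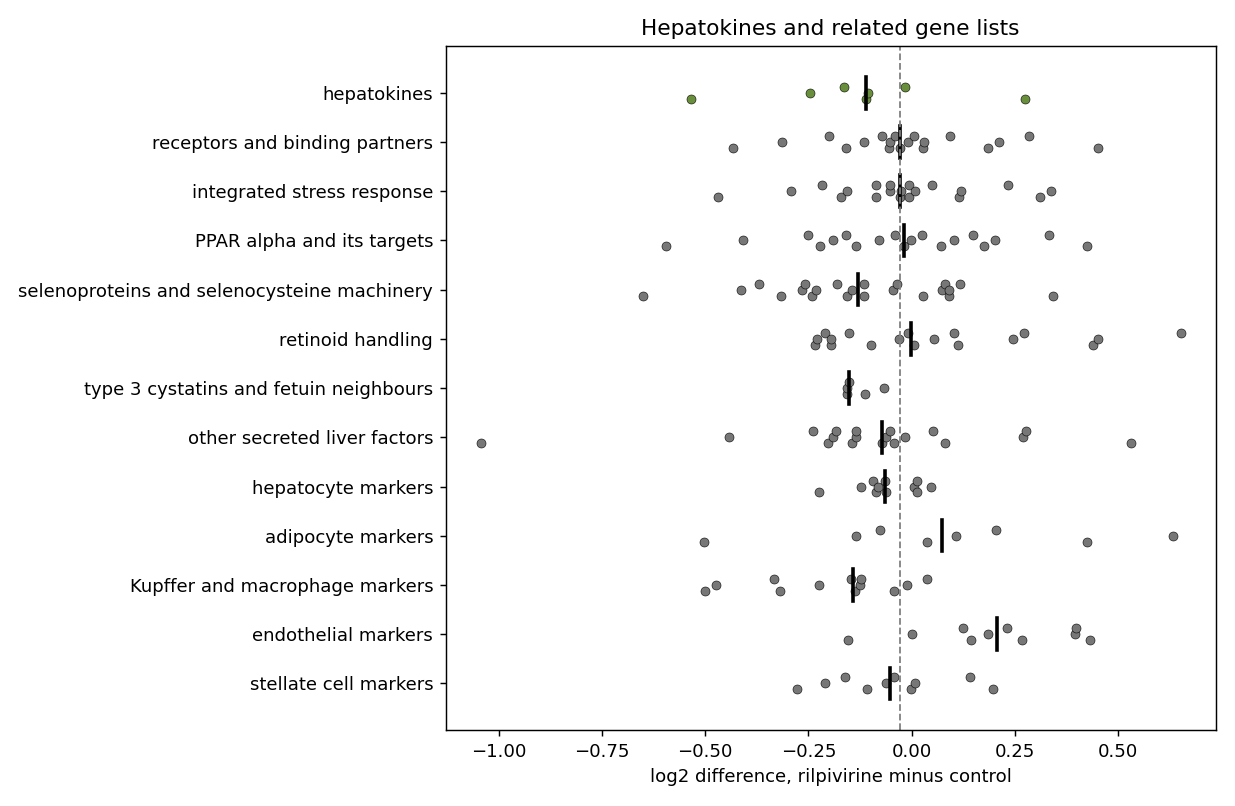
Log2 difference (rilpivirine minus control) of each tested gene of the hepatokines and of 12 lists, a point for each gene, with a bar at each list's median and a dashed line at the median of all genes tested (-0.03). The points of most lists lie on both sides of the line; selenoproteins have a median of -0.13 (-0.06 without rilpivirine replicate 2) and endothelial markers of 0.21 (0.21 without that array).

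Markers of the liver's cell types were measured beside these values. The 11 tested hepatocyte markers had 4 higher and 7 lower (median -0.06), with Serpina1a, Cyp2e1 and Hnf4a at -0.22, -0.09 and -0.09. Their summed level was 15.44 to 15.54 with rilpivirine and 15.45 to 15.59 in controls (log2 of summed linear signals). Of 12 Kupffer cell and macrophage markers, 1 was higher and 11 lower (median -0.14). Their summed level was 10.74 to 11.02 with rilpivirine and 10.95 to 11.21 in controls. C1qb, C1qa and Trem2 differed by -0.50, -0.33 and -0.32. On all 8 arrays Clec4f, Timd4, Vsig4 and Cd5l, of the same list, differed by -0.13, -0.04, -0.01 and 0.04. A further quantile normalization of all arrays gave a median of -0.06 for this list. Of 10 endothelial markers 8 were higher and 2 lower (median 0.21), at 11.09 to 11.48 with rilpivirine and 10.87 to 11.24 in controls. Kdr, Oit3 and Stab2 differed by 0.43, 0.40 and 0.40. The 2 lower, on all 8 arrays, were Cd34 at -0.16 and Pecam1 at -0.0003. Of 10 stellate cell markers 3 were higher and 7 lower (median -0.05), at 11.02 to 11.44 with rilpivirine and 11.15 to 11.33 in controls, with Des, Reln and Lrat at -0.28, 0.20 and -0.21. Of 8 tested adipocyte markers 5 were higher and 3 lower (median 0.07), at 11.46 to 12.15 with rilpivirine and 11.40 to 11.99 in controls. Most of that summed signal was Car3, at 11.39 to 12.1 with rilpivirine and 11.29 to 11.93 in controls. The sum therefore says little of the other adipocyte markers. Cidea, Retn and Plin4 differed by 0.43, 0.63 and -0.50, and Adipoq, the defining adipocyte hormone, was below the level tested. In all 5 lists 0 markers passed over all genes. At an unadjusted p under 0.05, 3 Kupffer cell and macrophage markers were lower, beside 3.21% of all genes, and 0 were higher. Endothelial markers had 3 higher, beside 2.0% of all genes, and 0 lower, and the remaining lists had 0 either way. The groups did not overlap in 2 of the 12 Kupffer cell and macrophage markers, C1qa and C1qb, beside 3.04% of all genes. Without rilpivirine replicate 2 the median was 0.25 for adipocyte markers, with 6 higher and 2 lower, and 0.01 for stellate cell markers, with 5 higher and 5 lower; Plin4 was at -0.29, Lrat at -0.04 and Hnf4a at -0.05. Adipocytes also express Angptl4 and Rbp4, and the part of any cell type in the hepatokine values was not tested. In whole liver, fewer cells of a type and less RNA per cell cannot be told apart.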

How the data were processed

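Total RNA of snap-frozen liver (300 ng per sample) was labelled with a whole-transcript kit, per the labels' protocols. For 41345 probe sets the authors deposited log2 values. The submitters' processing notes name RMA, which corrects background, equalises array distributions and summarises probes, and limma, with no version. Changes in the total amount of mRNA cannot be seen after RMA. Array medians lay between 3.33 and 3.45, no 2 arrays were identical, and the number of arrays limits the precision.

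Probe sets with 1 symbol in the platform annotation (23521; 1814 had several and 16010 none) were used, the brightest for each symbol, and genes averaging below the 25th percentile (2.72) were dropped. Groups were compared in R 4.3.3 with limma 3.58.1 (lmFit, eBayes; two-sided), with Benjamini-Hochberg adjustment over 16635 genes and a threshold of 0.05; the fit was tested on simulated data. Exact permutation tests used numpy 2.4.6 and figures matplotlib 3.10.9. The members and lists were chosen with earlier results of these data known. Genes named were the members, 8 fixed genes, for each list the 3 with the smallest unadjusted p, and for each member the 3 with the highest r (predicted genes and olfactory receptors left out). A few further list genes were named beside them for contrast. Alternatives covered moderation, array weights, centring, a further quantile normalization, filters, probe set averaging, the replicate number as a block, and samples left out. The pairs of members were to be 28 and were 21 without Gdf15.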

Additional observations from a re-analysis of the deposited data

Results flagged for a closer look

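None of the 7 hepatokines had an array far from the rest of its group. Among 136 groups of 4 arrays checked (68 named genes), 7 held such an array. Many of these genes were chosen for a small p or a high r over the same arrays, so the count was not set against chance. A single array could still matter for a member: without rilpivirine replicate 4 the Fgf21 difference went from 0.27 to 0.0017. With rilpivirine, replicate 2 was the low array for Dio1 (8.34) and Dnajb11 (7.03), and replicate 4 was the high array for Retn (5.38) and the low array for Oit3 (7.64) and Cyp2g1 (4.03). In controls, replicate 3 was high for Rcc1l (5.70) and replicate 1 low for Cpn2 (8.81).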

How the results depend on the processing

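Under each of 17 alternatives, 0 hepatokines and 0 of all genes passed the adjusted p. The sign of Fgf21, Angptl4 and Rbp4 held in all 17. Ahsg had 0.029 with arrays centred on their medians, 0.0096 without rilpivirine replicate 4 and 0.0090 without control replicate 3. Fetub had 0.060 without rilpivirine replicate 4. Without rilpivirine replicates 1 and 2 together Selenop had 0.066, Lect2 0.10 and the median of stellate cell markers 0.13; Fetub there had -0.46, with an unadjusted p of 0.0141 and an adjusted p of 0.791 in limma. With single samples left out, differences ran from 0.00 to 0.45 for Fgf21, -0.84 to -0.25 for Angptl4, -0.036 to 0.0096 for Ahsg, -0.24 to 0.060 for Fetub, -0.17 to -0.04 for Selenop, -0.43 to -0.04 for Lect2 and -0.20 to -0.14 for Rbp4. Over the same samples the list medians that changed sign ran from -0.16 to 0.03 for the integrated stress response, -0.10 to 0.04 for PPAR alpha targets, -0.01 to 0.04 for retinoid genes, -0.07 to 0.00 for receptors, -0.14 to 0.25 for adipocyte markers and -0.18 to 0.01 for stellate cell markers. Pairs of members with an absolute r of at least 0.7 numbered 3, and 5 with group means removed. The number of genes at an unadjusted p under 0.05 (867) was 1524 without rilpivirine replicate 4 and 578 without control replicate 1. Chosen after seeing the data, the differences of the 68 named genes were recomputed without rilpivirine replicate 2: 5 changed sign, 17 were smaller and 8 larger by over 1.5 times, and 38 stayed within that. The causes were not tested.

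Same-numbered samples had no steady likeness: for replicates 1 to 4 their deviations from group means correlated at -0.25, 0.46, -0.09 and 0.07. These values do not settle whether the samples were paired. With the replicate number as a block, 0 genes passed the adjusted p; the Angptl4 difference was -0.53, with an unadjusted p of 0.00445 and an adjusted p of 0.518 in limma, against 0.149 and 0.890 without the block.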

Other observations

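Other factors that the liver secretes were measured beside the hepatokines. Of 19 tested, 5 lay above and 14 below 0 in log2 difference (rilpivirine minus control; median -0.07), and 0 passed over all genes. Without rilpivirine replicate 2, 7 lay above and 12 below 0 (median -0.03), and without rilpivirine replicates 1 and 2 together the median was 0.04. Fgl1, a fibrinogen-like protein released by hepatocytes, measured 8.79, 9.58, 10.59 and 8.97 with rilpivirine, against 10.92, 9.88, 10.34 and 10.96 in controls; the groups overlapped, and the difference was -1.04 ± 0.37 (SE; adjusted p = 0.855 in limma). Serpinb1a, a protease inhibitor linked to growth of pancreatic beta cells, differed by 0.53 ± 0.21 (SE; adjusted p = 0.890 in limma). Gdf2, which encodes BMP9, differed by -0.20 ± 0.12 (SE). The summed level of this list was 13.14 to 13.25 with rilpivirine and 13.30 to 13.44 in controls (log2 of summed linear signals). That the groups did not overlap in this sum rested on 2 of its 19 genes. Without Fgl1 the sum was 13.00 to 13.18 with rilpivirine and 13.09 to 13.21 in controls, and without Hamp, which encodes the iron hormone hepcidin, 11.86 to 12.26 with rilpivirine and 11.97 to 12.53 in controls. These 2 genes were singled out after their values were seen.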
